A study of Mus musculus with 16 samples.

Results

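Litaf and Pcnx2 each carried a strongly enriched ATAC-seq peak inside an intron, in 10 of 16 libraries at Litaf and in the 4 WT TM libraries at Pcnx2. The other peaks in and around both genes, those at their start sites included, were low and most were seen in a single library. The 2 genes are 2 of 21938 protein-coding genes in the GENCODE M21 annotation of the mouse genome (GRCm38). They were chosen by measured values of these libraries, namely presence of a peak in every library of one group and in no library of another and the height of those peaks, so the presence and height of the 2 intronic peaks are given as a description with no test. ATAC-seq uses a transposase to cut and tag DNA that is not covered by nucleosomes, and a peak is an interval where tagged fragments pile up above the local background.

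The libraries were made from mouse T cells grown as effector cells (TE) or memory cells (TM), from WT or TPdh-/- mice, with 4 libraries in each of the 4 groups. TPdh-/- cells came from mice with a floxed Pdha1 allele crossed with CD4-Cre, in which the Cd4 promoter drives Cre recombinase in T cells. Pdha1 encodes a subunit of pyruvate dehydrogenase, the enzyme complex that turns pyruvate into acetyl-CoA. The WT samples carry the genotype label TPdh+/+, and whether they also carried Cre is not given in the sources used here. The methods describe male and female mice of 8 to 12 weeks, activation for 3 days, and then 4 days with 10 ng/mL of IL-2 for TE or of IL-15 for TM. The methods activate OT-I cells, whose T cell receptor is a transgene against an ovalbumin peptide, but the labels of these libraries do not say that they are OT-I. The labels do not say that the 4 libraries of a group came from separate mice, so each p-value measures the spread between these libraries, which may be technical. In bulk samples of this kind, fewer cells with an open site and less signal per cell cannot be told apart.

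The peak lists held 2290 to 86637 peaks each. The mean was 8869 ± 7383 (SD, n = 4) in WT TE, 50920 ± 21251 in TPdh-/- TE, 31835 ± 17776 in WT TM and 69768 ± 11594 in TPdh-/- TM. The files give no read totals, so depth was only estimated, through a background coverage solved from the fold enrichments and p-values, which was 1.18 ± 0.406 fragments in WT TE, 0.324 ± 0.130 in TPdh-/- TE, 0.411 ± 0.107 in WT TM and 0.224 ± 0.0309 in TPdh-/- TM. WT TE had the shortest lists on average and the highest background, although WT TE replicate 2 had 19234 peaks and WT TM replicate 3 had 13304. A list holds only what passed the caller's threshold, so absence below means no listed peak and not absence of fragments. Of 8 genes that mark T cells, 7 had a peak at a start in at least 1 library, against 3 of 8 markers of B cells, myeloid cells and CD4 T cells, and the median number of libraries was 3.5 and 0. Over all coding genes, 16463 of 21938 had one and the median was 2, so the T cell markers were near that share. Pdha1 had a start peak in 6 of 16 libraries (in 1 WT TE and 1 TPdh-/- TE libraries and in 1 WT TM and 3 TPdh-/- TM libraries). This does not check the deletion, since the position of the floxed part is not given in the sources used here.

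Litaf encodes a small zinc-binding protein of late endosomal and lysosomal membranes, first described as a factor induced by lipopolysaccharide that acts on the gene of tumor necrosis factor. Its PPxY motifs bind WW-domain ubiquitin ligases such as Nedd4 and Itch, and it takes part in sorting membrane cargo for degradation. Pcnx2 encodes a multipass membrane protein of the pecanex family, named after a Drosophila gene of the Notch pathway, and its work in T cells is little known. Much of the mouse genome is repeat sequence. Satellite DNA stands in long tandem arrays near centromeres, and short interspersed elements such as B2 are spread over the genome in very many copies.

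The Litaf site is at chr16:10975068-10975248 (GRCm38), 181 bp across all its peaks. Litaf (ENSMUSG00000022500.15) lies on the minus strand at chr16:10959275-11066157, and the site overlapped 0 exons. It lies in intron 1 of Litaf-201, Litaf-202, Litaf-203 and Litaf-204, 8418 bp before exon 2 and 178 bp past exon 1 of Litaf-202. The start of Litaf-202 is 331 to 511 bp away. The reference sequence of the site is shown because it is built of repeats, with 12-base words that occur more than once in capitals (plus strand, RefSeq).
Litaf site: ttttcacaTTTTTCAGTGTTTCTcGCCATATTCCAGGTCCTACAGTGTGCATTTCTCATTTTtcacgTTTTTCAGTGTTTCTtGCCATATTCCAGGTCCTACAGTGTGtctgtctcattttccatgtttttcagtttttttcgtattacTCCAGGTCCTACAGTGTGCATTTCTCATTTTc

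Repeated words covered 124 of its 181 bases (68.5%), and copies of a word stood 59 bp apart at the median. Cut at that distance from the first repeated word, the site gives 3 units, shown one under another with the bases that are the same in all 3 in capitals.
Litaf unit 1 (chr16:10975076-10975134): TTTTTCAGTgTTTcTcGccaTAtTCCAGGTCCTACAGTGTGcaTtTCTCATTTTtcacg
Litaf unit 2 (chr16:10975135-10975193): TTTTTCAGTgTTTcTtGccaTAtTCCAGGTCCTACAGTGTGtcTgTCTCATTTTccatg
Litaf unit 3 (chr16:10975194-10975248): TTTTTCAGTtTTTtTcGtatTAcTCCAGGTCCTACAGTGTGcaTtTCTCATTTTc
Of the 55 positions that all 3 units have, 44 (80%) were the same in all 3, and the first and second unit matched at 53 of 59 positions. The sequence resembles mouse major satellite DNA, which is built of diverged units of this kind. In the reference, 97.8% of the site is soft-masked, the lower-case marking of repeats, against 36.4% of the chromosomes as a whole.

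The Pcnx2 site is at chr8:125779071-125779237 (GRCm38), 167 bp across its peaks. Pcnx2 (ENSMUSG00000060212.13) lies on the minus strand at chr8:125751508-125898317. The site overlapped 0 exons and lies in the intron of 11216 bp between exons 25 and 26 of the 34 exons of Pcnx2-201, 6034 and 5015 bp from them. The nearest start, that of the retained-intron transcript Pcnx2-202, is 4943 to 5109 bp away, farther than the 1000 bp used here for a start. Capitals mark the stretch that all its peaks share (plus strand, RefSeq).
Pcnx2 site: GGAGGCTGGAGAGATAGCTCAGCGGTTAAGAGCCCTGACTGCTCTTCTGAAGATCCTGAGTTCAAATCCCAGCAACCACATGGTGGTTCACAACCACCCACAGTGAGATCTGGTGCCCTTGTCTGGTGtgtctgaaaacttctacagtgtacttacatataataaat
This sequence resembles the B2 short interspersed element. All of it (100%) is soft-masked, and it holds 1 CpG at 47.3% G and C, against 3 CpG at 38.1% in the Litaf site.

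The windows before the starts of Litaf-201 and Pcnx2-201 are of another kind, and are shown with CpG in capitals on the genes' own minus strand. That of Litaf, 250 bases before the Litaf-201 start at chr16:10993122-10993371, holds 17 CpG at 65.6% G and C, with 16.8% soft-masked. That of Pcnx2, at chr8:125898318-125898567, holds 7 CpG at 52.8%, with 21.6% soft-masked.
Litaf promoter: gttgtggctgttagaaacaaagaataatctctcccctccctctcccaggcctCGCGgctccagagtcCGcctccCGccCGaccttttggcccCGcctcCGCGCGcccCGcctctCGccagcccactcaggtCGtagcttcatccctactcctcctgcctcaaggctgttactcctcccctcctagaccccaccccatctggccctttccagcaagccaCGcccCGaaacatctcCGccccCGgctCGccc
Pcnx2 promoter: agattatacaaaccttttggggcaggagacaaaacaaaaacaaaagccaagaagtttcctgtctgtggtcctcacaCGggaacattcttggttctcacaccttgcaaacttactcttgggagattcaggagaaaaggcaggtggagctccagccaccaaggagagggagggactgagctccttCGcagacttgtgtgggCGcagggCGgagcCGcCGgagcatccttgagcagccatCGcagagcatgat

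Motifs of 7 families of T cell and promoter factors were searched on both strands (AP-1 TGANTCA, RUNX TGTGGTT, ETS CCGGAA, T-box AGGTGTGA, SP/KLF GGGCGG, NFY CCAAT and CRE TGACGTCA). The Litaf site held none of them. The Pcnx2 site held 1 RUNX match, found in 3.91% of 20000 peak summit windows of the same length. In the stretch of the same length before each start, Litaf held 2 SP/KLF matches (in 3.38% of summit windows), and Pcnx2 held 1 SP/KLF match (2.99%) and 1 T-box match (0.715%). The T-box and SP/KLF letters do not overlap each other. A match is only a match of letters.

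At the Litaf site, 10 of 16 libraries had a peak. The heights below are the pileup, which is the number of fragments at the summit, and the fold enrichment, which MACS2 computes as (pileup + 1) over (local background + 1). The added 1 makes the fold enrichment smaller than the plain ratio, most of all where the background is low. In TPdh-/- TE the fold enrichment was 28.3 in replicate 1, 28.4 in replicate 2, 28.5 in replicate 3 and 41.3 in replicate 4, with pileups of 73, 50, 63 and 165. In WT TM it was 43.0, 48.9, 51.1 and 35.0 in replicates 1 to 4, with pileups of 140, 144, 226 and 123. In TPdh-/- TM it was 31.6 in replicate 1 and 34.0 in replicate 2, with pileups of 71 and 86, and replicates 3 and 4 had no peak. No WT TE library had one. Replicates 1, 2 and 3 of TPdh-/- TE lie below every WT TM library, and replicate 4 lies between the WT TM libraries, so the 2 groups overlap. This order depends on the added 1. As the plain ratio of pileup to local background, TPdh-/- TE had 45.1, 62.8, 50.5 and 54.6 and WT TM 61.5, 73.3, 65.6 and 48.3 in replicates 1 to 4, so that only replicate 1 of TPdh-/- TE lies below every WT TM library. The mean fold enrichments were 31.6 ± 6.44 (SD, n = 4) in TPdh-/- TE and 44.5 ± 7.20 in WT TM. The plot of fold enrichment by library shows these values beside those of the starts.

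**Figure D1:**
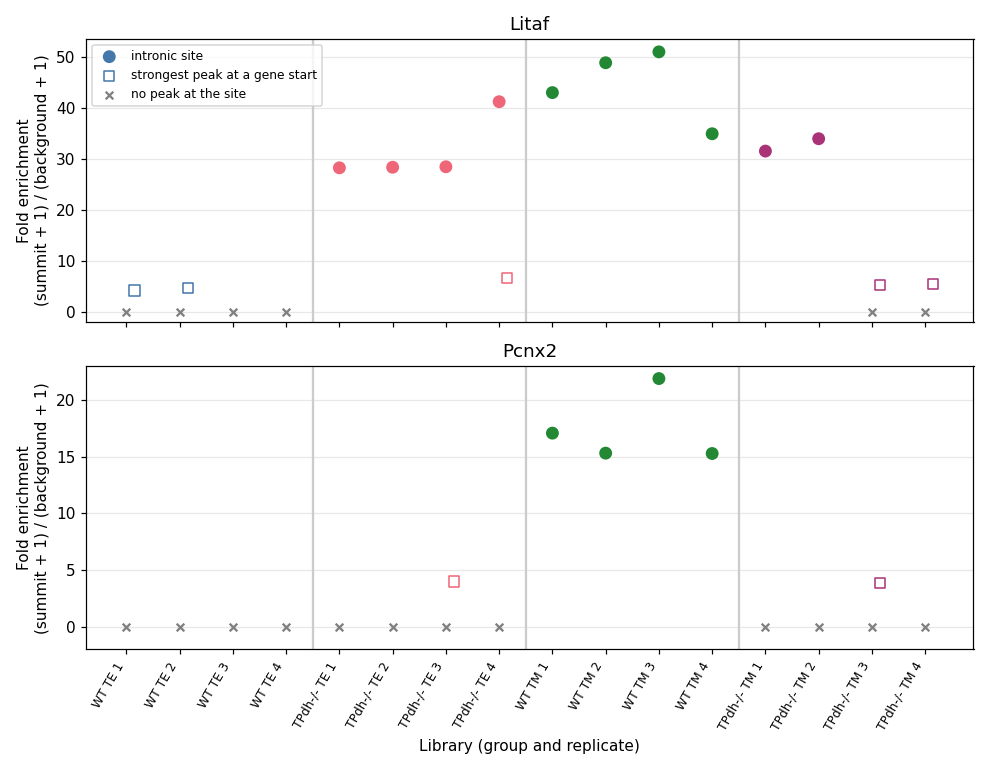
Fold enrichment (vertical axis, summit fragments + 1 over local background + 1) in each of the 16 libraries, ordered by group and replicate, for the intronic site (filled circles), the strongest peak within 1000 bp of a start (open squares) and libraries without a peak at the site (crosses at 0). The Litaf site (top) lies between 28.3 and 51.1 in 10 libraries and its starts between 4.19 and 6.67, and the Pcnx2 site (bottom) lies between 15.3 and 21.9 in the 4 WT TM libraries.

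The Litaf peaks were among the strongest of their libraries. By fold enrichment they ranked 3rd to 19th in their lists, within the top 0.0336% in each of the 10, and by q-value 12th to 33rd. The −log10 q-values, which measure the excess over background after correction for many tests, ran from 66.1 to 312. Set against the background coverage of the library, the pileups were 174 to 406 times as high. In none of these measures was a Litaf peak near the threshold of the caller.

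At the Pcnx2 site, only the 4 WT TM libraries had a peak. The fold enrichment was 17.1 in replicate 1, 15.3 in replicate 2, 21.9 in replicate 3 and 15.3 in replicate 4, with pileups of 27, 24, 49 and 25 fragments. Replicate 3 stands above the other 3 libraries, which lie close together, but in the plain ratio of pileup to local background the values were 42.2, 37.9, 38.1 and 35.6, with replicate 1 highest. The mean fold enrichment was 17.4 ± 3.12 (SD, n = 4), and the −log10 q-values ran from 25.2 to 54.4. The peaks ranked 40th to 60th in their lists by fold enrichment and 49th to 70th by q-value. No library of WT TE, TPdh-/- TE or TPdh-/- TM listed a peak there, including the libraries with the longest lists. WT TM replicate 3 had the highest pileup and fold enrichment of its group at both sites and the shortest list of its group, 13304 peaks.

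The peaks of one site began at nearly the same base in every library that had them. The 10 Litaf summits fell within 14 bp, their left edges within 11 bp, and the stretch common to all 10 was 99 bp. All 4 Pcnx2 peaks had the same left edge, their summits fell within 7 bp, and they shared 128 bp. Widths were 109 to 181 bp at Litaf and 128 to 167 bp at Pcnx2. In comparison, the 52 other peaks in Litaf or within 20 kb of it had a median width of 182.5 bp (127 to 1024 bp), and the 70 other peaks around Pcnx2 one of 198.5 bp (103 to 893 bp). Of these, 26 of 52 and 28 of 70 were no wider than the widest peak of the site. Over whole lists, 1.03% to 67.4% of peaks were no wider than the Litaf peak of the same library, and 11.1% to 29.0% no wider than the Pcnx2 peak.

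Besides the intronic sites, the peaks of both windows were low. The 52 others around Litaf had fold enrichments of 2.96 to 9.02 (median 4.15) and pileups of 3 to 16 (median 5). The 70 others around Pcnx2 had 2.98 to 7.14 (median 4.14) and 3 to 11 (median 5). In 25 (48.1%) and 32 (45.7%) of them the summit held 4 fragments or fewer. Within one library, the Litaf site was 3.16 to 11.7 times as enriched as the strongest other peak of its window, in the 9 libraries that had one, and the Pcnx2 site 2.67 to 4.12 times. WT TM replicate 3 had the Litaf site and no other peak in that window. The multiples for both sites are of fold enrichments, and plain ratios of pileup to local background would give smaller ones. The plot of peak width and fold enrichment shows the sites at widths that other peaks also had, with no other peak of either window above 10 in fold enrichment.

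**Figure D2:**
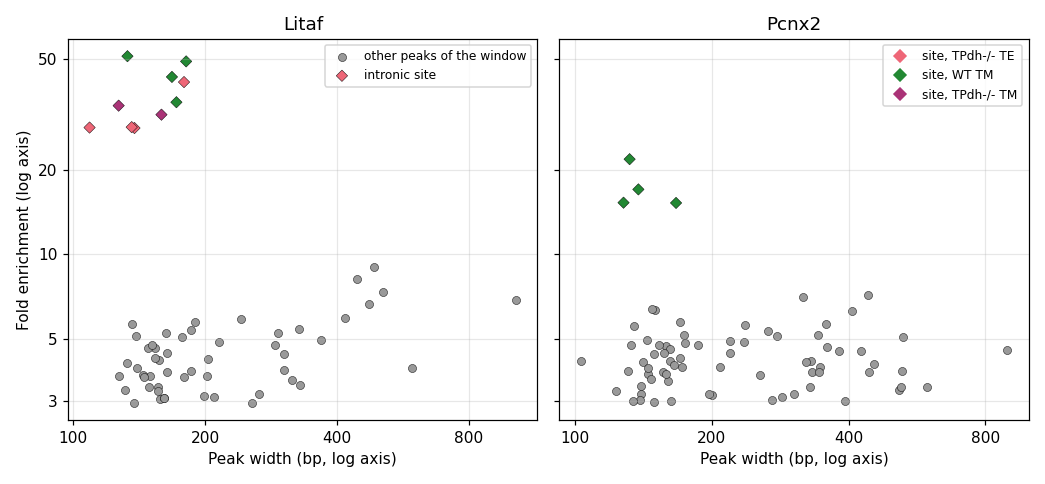
Peak width (horizontal log axis, bp) against fold enrichment (vertical log axis) for every peak in Litaf (left) or Pcnx2 (right) and 20 kb to each side, pooled over the 16 libraries. Coloured diamonds are the intronic sites by group and grey circles are all other peaks, which stay at or below 9.02 around Litaf and 7.14 around Pcnx2.

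The other peaks were also scattered. Merged over libraries, the Litaf window held 39 regions, of which 27 were seen in a single library, and the Pcnx2 window 60, of which 52 were. One region other than the site was shared by at least 3 libraries around Litaf, the Litaf-201 start at chr16:10992800-10993835. It had a peak in 5 libraries with fold enrichments of 3.93 to 6.67 and pileups of 4 to 10. Around Pcnx2 there were 2 such regions, one in the neighbouring gene Ntpcr at chr8:125734115-125734425 (3.03 to 4.43) and one at the 3′ end of Pcnx2 at chr8:125751266-125751706 (3.73 to 7.14). All summits of the latter lie just outside Pcnx2, and only the peak of TPdh-/- TM replicate 4 reaches into its last exon. At the borders of the windows, the last peak inside and the first outside had fold enrichments of 7.33 and 3.03 at the lower Litaf border, 4.39 and 5.52 at the upper, 4.28 and 3.97 at the lower Pcnx2 border, and 5.55 and 8.72 at the upper. The maps of summits along the genes show the sites as the one column of high peaks in each window.

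**Figure D3:**
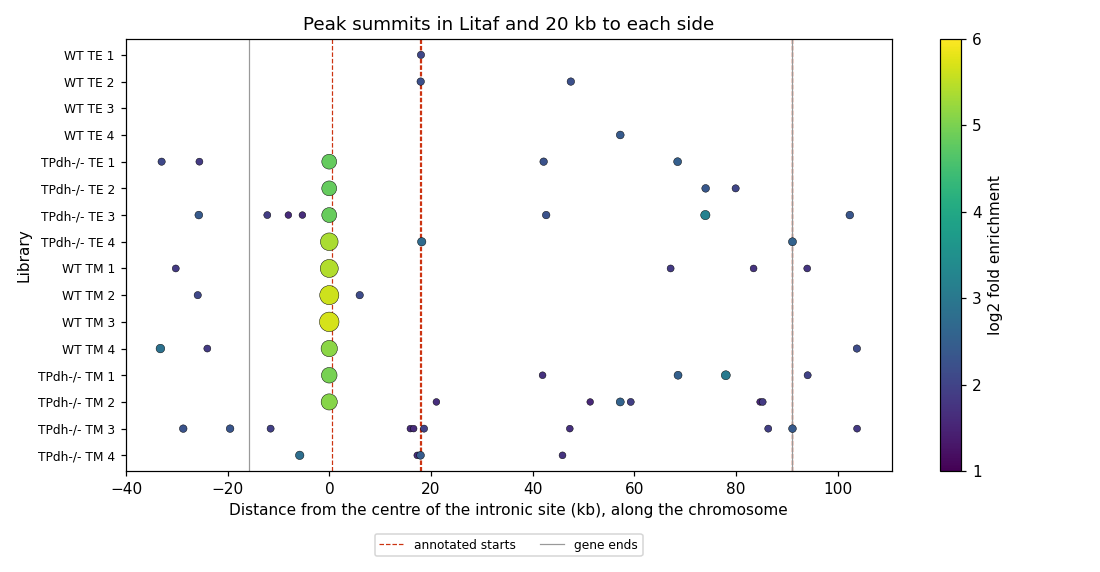
Peak summits by library (rows) against distance from the centre of the Litaf site (kb, increasing along the chromosome, so that Litaf reads from right to left), with colour and size giving fold enrichment. Dashed lines are annotated Litaf starts and grey lines the ends of the gene. The column at 0 holds the 10 site peaks, and the starts about 18 kb to the right have peaks in 5 libraries.

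**Figure D4:**
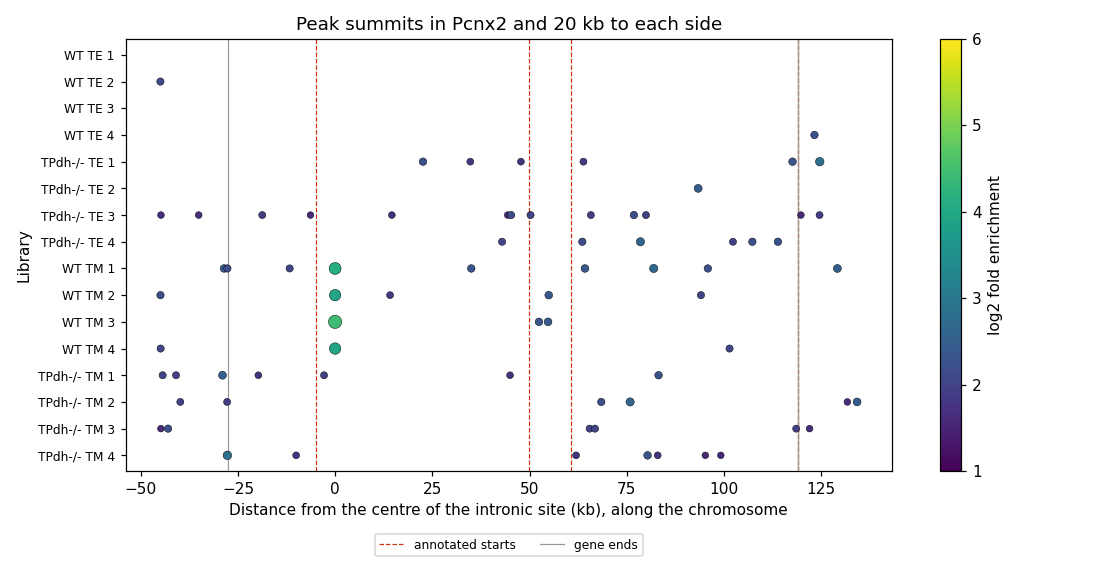
Peak summits by library (rows) against distance from the centre of the Pcnx2 site (kb), drawn as for Litaf. The 4 WT TM libraries hold the column at 0, and the other 70 peaks are low and scattered over the gene and its flanks.

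Next, the starts of both genes were compared between groups, with peaks of the intronic sites left out because the Litaf site lies within 1000 bp of the Litaf-202 start. Litaf had a start peak in WT TE replicates 1 and 2 (fold enrichment 4.19 and 4.65), TPdh-/- TE replicate 4 (6.67) and TPdh-/- TM replicates 3 and 4 (5.23 and 5.41). No WT TM library had one. These are low peaks, with 6 to 10 fragments at the summit. That of TPdh-/- TM replicate 3 lies in an exon of Snn and within 1000 bp of both the Snn and Litaf-204 starts, so it cannot be assigned to one of the 2 genes, and its peak at the Litaf-201 start was 3.93. With the site peaks counted, a start peak was held by 2 WT TE libraries and by 4 of each other group. Of the 5 libraries, 4 had no peak at the intronic site, and in TPdh-/- TE replicate 4, which had both, the site was 6.19 times as enriched as the start. This multiple is also of fold enrichments, and plain ratios of pileup to local background would give a smaller one. Pcnx2 had a start peak in TPdh-/- TE replicate 3 (3.97) and TPdh-/- TM replicate 3 (3.83), each of 4 fragments and neither in a library with the site. By library, 4.82% to 34.7% of coding genes had a start peak, so a gene without one was the usual case, and nothing is read from its absence in libraries with the site. An antisense gene, A730098A19Rik, overlaps the main Pcnx2 start, and peaks there cannot be assigned to one of the 2 genes.

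Whether a library held a start peak was tested for all 21938 genes with Fisher's exact test, two-sided, and Benjamini-Hochberg adjustment. With 4 libraries against 4 the smallest possible p is 0.0286, reached only where 4 libraries hold a peak on one side and 0 on the other. Between TPdh-/- TM and WT TM, 0.606% of genes reached it, 133 higher and 0 lower in TPdh-/- TM. Between TPdh-/- TE and WT TE 0.283% did (16 higher, 46 lower in TPdh-/- TE). Between WT TM and WT TE it was 0.273% (2 higher, 58 lower in TM), and between TPdh-/- TM and TPdh-/- TE 0.47% (97 higher, 6 lower in TM). After adjustment 0 genes passed 0.05 in any of the 4 comparisons. With so few genes at the smallest possible p, no gene could have passed, so the adjusted p says nothing about any single gene.

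Neither Litaf nor Pcnx2 was among the genes that reached this p. A start peak of Litaf was held by 2 WT TE and 1 TPdh-/- TE libraries and by 0 WT TM and 2 TPdh-/- TM libraries, with exact p of 0.429 or 1 and adjusted p of 1 in each comparison. For Pcnx2 the numbers were 0, 1, 0 and 1, with exact p and adjusted p of 1. The height of the strongest start peak, as log2 fold enrichment with 0 where no peak was listed, was compared by an exact two-sided permutation test. TPdh-/- TM minus WT TM was 1.21 for Litaf and 0.48 for Pcnx2, TPdh-/- TE minus WT TE −0.39 and 0.50, WT TM minus WT TE −1.07 and 0, and TPdh-/- TM minus TPdh-/- TE 0.52 and −0.01. The exact p ran from 0.429 to 1. Start peaks in 2 libraries of one group and 0 of the other give 0.429 whatever their heights. So few start peaks cannot show a difference in height, and nothing is read from these p-values. The Pcnx2 values of 0.48 and 0.50 rest on 1 library each and fall to 0 without replicate 3 of TPdh-/- TM or of TPdh-/- TE, and with starts of 2000 bp they were 0.92 and 1.07.

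The peaks of the whole window outside the sites were then counted. Around Litaf, WT TE replicates 1 to 4 had 1, 2, 0 and 1 of them, TPdh-/- TE 4, 2, 7 and 2, WT TM 4, 2, 0 and 3, and TPdh-/- TM 4, 6, 10 and 4. Around Pcnx2 the numbers were 0, 1, 0 and 1 in WT TE, 6, 1, 13 and 6 in TPdh-/- TE, 8, 4, 2 and 2 in WT TM, and 7, 6, 6 and 7 in TPdh-/- TM. WT TE is low for both genes, but WT TM replicate 3 also had 0 around Litaf and TPdh-/- TE replicate 2 had 1 around Pcnx2, so WT TE overlaps other groups. For Pcnx2, WT TM exceeded WT TE by 1.67 on the scale of log2(number + 1), with no overlap (exact permutation test, p = 0.0286, adjusted p = 0.171 over 8 tests). For Litaf, TPdh-/- exceeded WT by 1.25 in TM and by 1.23 in TE, each with an exact p of 0.0857 and an adjusted p of 0.171. The largest of the 8 differences was that of Pcnx2 between TPdh-/- TE and WT TE, 2.11, with the same exact p of 0.0857 and adjusted p of 0.171. The other 4 tests had exact p of 0.143 to 0.743. List length differed between the groups in the same direction, its part in the result was not tested, and per 10000 peaks of the list 4 of the 8 differences change sign. On that scale the difference of 1.67 for Pcnx2 was 0.64 (exact permutation p = 0.229) and that of 2.11 was 0.53, and in lists cut to 2290 peaks they were 0 and 0.25. The difference of 1.25 for Litaf became 0.25 per 10000 peaks, and 0.76 without WT TM replicate 3.

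**Figure D5:**
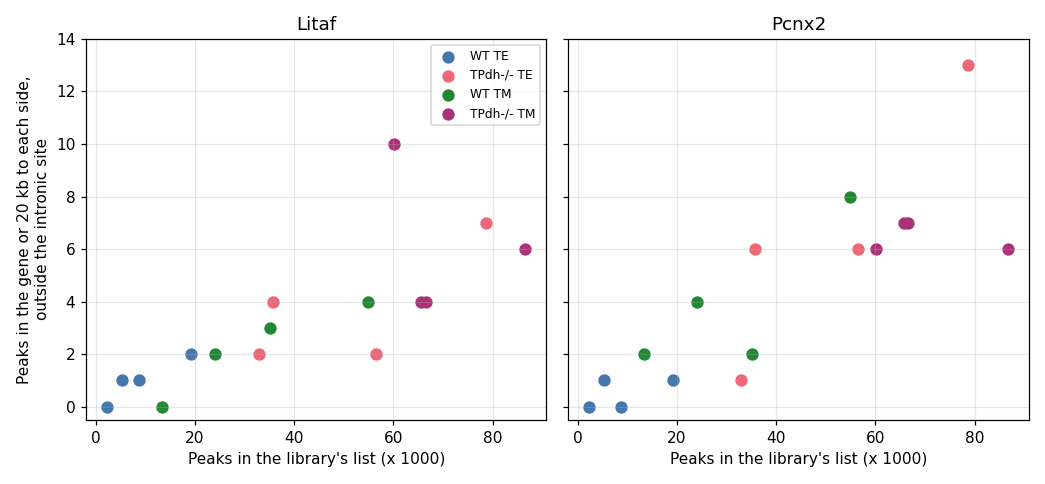
Number of peaks in Litaf (left) or Pcnx2 (right) and 20 kb to each side, the intronic site left out, against the length of the library's peak list (in units of 1000 peaks), 1 point per library and coloured by group. The numbers run from 0 in the list of 2290 peaks to 10 around Litaf and 13 around Pcnx2.

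For the genes that work with Litaf the numbers of libraries are a description, since the adjusted test could not have called any gene. A list of 10 partners and targets (Cdip1, Nedd4, Nedd4l, Itch, Wwox, Wwp1, Tsg101, Stam, Hgs and Tnf) had a start peak in a median of 5 of 16 libraries, against 2 for all coding genes, and 9 of the 10 had one in at least 1 library. Itch, a ligase that restrains T cell activation, had none. Wwp1, another ligase of the Nedd4 family, had a start peak in 4 WT TE and 3 TPdh-/- TE libraries and in 2 WT TM and 4 TPdh-/- TM libraries. Hgs, a subunit of the complex that sorts ubiquitin-tagged cargo on endosomes, had one in 4 WT TE and 2 TPdh-/- TE libraries and in 0 WT TM and 1 TPdh-/- TM libraries, and between WT TM and WT TE it was 1 of the 0.273% of genes (exact p = 0.0286, adjusted p = 1). Tsg101, which takes up the cargo in the next step, had one in 1, 0, 1 and 2 libraries of these groups in the same order, and Stam, an adaptor that binds Hgs, in 1, 0, 2 and 3. The ligases Nedd4 and Nedd4l had 0, 2, 1 and 1 and 1, 3, 2 and 3, the oxidoreductase Wwox 4, 2, 1 and 3, and Cdip1, a membrane protein related to Litaf, 0, 2, 2 and 0. Tnf had one in 1 TPdh-/- TM library.

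In the pecanex family, Pcnx had a start peak in 1 WT TE and 1 TPdh-/- TE libraries and in 1 WT TM and 2 TPdh-/- TM libraries. In the same order, Pcnx3 had one in 1, 1, 2 and 2. Pcnx4 had one in 4, 2, 0 and 4, which gave an exact p of 0.0286 for TPdh-/- TM over WT TM and for WT TM below WT TE (adjusted p = 1 in both), as 0.606% and 0.273% of all genes did. WT TM replicate 3 had start peaks at 4.82% of coding genes, the lowest share of the 16 libraries, and the highest share was 34.7% in TPdh-/- TM replicate 4. Of the neighbouring genes, Txndc11 had a start peak in 2 WT TE and 2 TPdh-/- TE libraries and in 2 WT TM and 4 TPdh-/- TM libraries, Snn in 0, 1, 0 and 2, Ntpcr in 1, 1, 2 and 2, and Map3k21 in 0, 0, 0 and 1.

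Loci with sequence like the sites were then examined in the same lists. With at least 80% identity over at least 80% of the length, the Litaf site had 246 other loci in the reference, 184 of them on sequences not placed on a chromosome, and the closest matched at 89.6%. Of the 62 on chromosomes, 12 to 18 had a peak in each library. In WT TE, which had no peak at the Litaf site, 13 to 15 did, 5 or 6 of the peaks there had a fold enrichment of at least 15, and the highest was 28.7. The highest was 32.6 in TPdh-/- TE, 40.5 in WT TM and 31.6 in TPdh-/- TM. Peaks at sequences like the Litaf site were thus listed in all 4 groups, while the Litaf site itself was listed in 3.

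The Pcnx2 site had 64182 other loci at the same limits, 60720 of them on chromosomes, of which 87 matched at 90% identity or more, and the closest at 94.6%. Peaks lay at 1 to 64 of the 60720 in WT TE, at 202 to 570 in TPdh-/- TE, at 55 to 435 in WT TM and at 538 to 749 in TPdh-/- TM. No library had more than 1 peak with a fold enrichment of at least 15 among them. A peak of the height of the Pcnx2 site was therefore rare at sequences of its kind, where nearly all loci had none.

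Peaks in soft-masked sequence were more frequent at the top of the lists. The 151 bases around the summit were fully masked in 2.68% to 9.30% of all peaks by library, and in 26.0% to 50.5% of the top 100 by fold enrichment. At the Pcnx2 site 4 of 4 peaks were fully masked, and at the Litaf site the share was 80.1% or more in each of 10 peaks. In the same windows, 5 of 52 (9.62%) of the other Litaf peaks and 1 of 70 (1.43%) of the other Pcnx2 peaks were. The placement of the reads behind these peaks was not tested.

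The 2 TPdh-/- TM libraries with the Litaf site differed from the 2 without it in the width of their peaks over the whole list. The median width was 195 bp in replicate 1 and 191 bp in replicate 2, against 301 bp and 322 bp in replicates 3 and 4. The WT TE libraries, also without the site, had medians of 200.5 to 234 bp, within the range of the other libraries with it (153 to 236 bp). Of 2 masked measures of the 100 strongest peaks, 1 separated the libraries. The mean masked share around their summits was 52.6% to 64.4% in the 6 libraries without the Litaf site and 68.7% to 78.0% in the 10 with it, whose own peak is 1 of the 100. The share of fully masked peaks overlapped, at 26.0% to 41.0% without the site and 31.0% to 50.5% with it. The part of these measures in the absence of the site was not tested.

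Few regions of the genome resembled the sites in their pattern over the 16 libraries, measured as Pearson's r of log2(summit pileup + 1) with 0 for no peak. The libraries share depth and list length, so these values are a description. Of 525048 merged regions, 0 had r of at least 0.9 with the Litaf site, and 0 were held by the same 10 libraries. The closest were the start of Tsc1 (r = 0.75), a subunit of the complex that restrains mTOR, and a fully masked site at chr17:53152487-53152642 (r = 0.73), 202504 bp from the nearest start, Kcnh8, with fold enrichments of 27.1 to 45.8. For the Pcnx2 site, 1 other region was held by just the 4 WT TM libraries, at chr1:24759587-24759891 14866 bp from the start of Lmbrd1 (r = 0.99), but with fold enrichments of 4.43 to 7.38. The next 4 regions had r of 0.85, and their nearest coding starts were those of Fli1 at 1686 bp, Pik3c2a at 15713 bp, Zfand3 at 34506 bp and Drd1 at 283168 bp.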

How the data were processed

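The 16 deposited files are peak lists, 1 per library. Per the labels, the authors used Trimmomatic, BWA 0.7.17, SAMtools and MACS2 2.2.7.1 with GRCm38, and each file holds the calls of a single library. The methods remove reads with alternative or split placements by their tags, and reads in the ENCODE blacklisted regions, a list not used here. A minimum mapping quality and the handling of duplicates are not given in the sources used here. The deposited columns hold a score, the fold enrichment at the summit, and −log10 of the p-value and q-value, all as MACS2 wrote them. The deposited score (10 times −log10 q) was read but carries no result of its own.

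The Poisson p-value and fold enrichment fix the pileup and local background of a summit, which were solved for every peak (solved in 100% in each library; at least 99.9% of simulated peaks were recovered). Background coverage is the lowest 1% point of the local backgrounds. Peaks on autosomes, X and Y were joined to GENCODE M21. A start was held if a peak overlapped 1000 bp to either side by at least 1 bp, and site peaks were left out of start windows, a choice made after the data were seen. Presence was tested by Fisher's exact test over all 21938 coding genes with Benjamini-Hochberg adjustment. Heights (log2 fold enrichment) and window counts (log2 of the number + 1) were tested by exact two-sided permutation tests, adjusted over 8 tests. The members and gene lists were chosen with earlier results of these data known. Members came from the rule and other regions were the 5 nearest in pattern. Genes of the lists were taken from known partners, family and neighbours. Copies were sought with blastn 2.17.0. Other tools were Python 3.11.15, numpy 2.4.6, pandas 2.3.3, scipy 1.17.1, matplotlib 3.10.9 and pysam 0.24.0. Sequences are those of RefSeq for GRCm38. Alternatives were a q-value minimum, other windows, lists cut to equal length, counts per 10000 peaks, each library left out, a replicate block and site peaks counted at starts and in the windows.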

Additional observations from a re-analysis of the deposited data

Results flagged for a closer look

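The fold enrichment of the Litaf site in TPdh-/- TE replicate 4 was 41.3, far from the other 3 libraries of that group (28.3 to 28.5), though as the plain ratio of pileup to local background it was 54.6, within their 45.1 to 62.8. The summit pileup of the Pcnx2 site in WT TM replicate 3 was 49 fragments, far from the other 3 (24 to 27). They are 2 of 17 groups of 4 values in which the gap of the highest or lowest library was set against the range, a rule that chance meets in about 1 in 20 groups. The heights of these sites chose the genes, so the gaps are a description and not a test.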

How the results depend on the processing

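The number of libraries with each intronic site was the same under 3 alternatives (summits inside the site, a −log10 q minimum of 5, lists cut to 2290 peaks), none of which could have removed these peaks, since the site spans its own peaks and their ranks and q-values lie far inside the limits. The 24 tested results had 320 alternative values, leaving out those that count site peaks at starts or in the windows. None passed an adjusted p of 0.05 (lowest 0.0762), which the presence tests could not have done. In 237 the direction was that of the reported value, 27 fell to 0 (12 in lists cut to 2290 peaks and 7 with the q-value minimum), 38 were 0 in both, 2 left 0, and 16 changed sign. For those 16, apart from the effects of construction the cause was not tested. With a −log10 q minimum of 5, Litaf start presence differed by 1 library between TPdh-/- TE and WT TE and by −1 between TPdh-/- TM and TPdh-/- TE. Measured as −log10 q in place of fold enrichment, Litaf start height differed by 0.21 between TPdh-/- TE and WT TE. Counting the Litaf site as a start peak, chosen after seeing the data, restates the values that chose the gene and is given with no test: it gave presence differences of 2 (TPdh-/- TE minus WT TE) and 2 (WT TM minus WT TE), and height differences of −1.74 (TPdh-/- minus WT in TM), 3.89 (in TE), 4.39 (TM minus TE in WT) and −1.24 (in TPdh-/-). Of the window counts, the gene body alone gave −0.25 (Litaf, TM minus TE in WT) and −0.20 (Pcnx2, in TPdh-/-), flanks of 5 kb gave −0.15 (Litaf, in WT), and equal lists −0.25 (Pcnx2, in TPdh-/-). Per 10000 peaks, Litaf gave −0.14 (TPdh-/- minus WT in TE) and −0.28 (TM minus TE in WT), and Pcnx2 −0.21 (TPdh-/- minus WT in TM) and −0.10 (TM minus TE in TPdh-/-). Leaving out 1 library at a time changed the sign of TPdh-/- TM minus TPdh-/- TE for Pcnx2 alone: the window difference ran from −0.24 (without TPdh-/- TE replicate 2) to 0.70 (without TPdh-/- TE replicate 3), and the start height difference from −0.50 (without TPdh-/- TM replicate 3) to 0.48 (without TPdh-/- TE replicate 3). With the sign kept, the Litaf window difference moved from 1.25 to 0.76 (TPdh-/- minus WT in TM) and from 0.58 to 1.07 (TM minus TE in WT) without WT TM replicate 3, from 0.58 to 0.28 without WT TE replicate 3, and from 0.60 to 0.36 (TM minus TE in TPdh-/-) without TPdh-/- TM replicate 3. Start heights rest on at most 2 libraries a group, and the Litaf differences ran from 0.80 to 1.61 (TPdh-/- minus WT in TM), −1.07 to −0.0047 (in TE), −1.43 to −0.69 (TM minus TE in WT) and 0.11 to 1.21 (in TPdh-/-).

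Same-numbered libraries correlated at r of −0.101 to 0.225 and not above 0.1 in every pair of any comparison. Between TM and TE the highest r of all pairs was that of a same-numbered pair, in WT (0.225) and in TPdh-/- (0.0516). Between TPdh-/- and WT it was not. These values do not settle whether same-numbered libraries share a mouse or a batch. With a replicate block the lowest exact permutation p was 0.125, the smallest 4 pairs allow. The lists hold no fragments below the caller's threshold, so a low signal at a site cannot be seen.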
